A study of Homo sapiens with 6 samples.

Results

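The genes that decide what a cell does with pyruvate and lactate were followed in H1975, a human lung adenocarcinoma cell line with mutant EGFR, before and after adaptation to Osi (osimertinib), an EGFR tyrosine kinase inhibitor. They are 10 of the 27216 rows of the deposited expression table, chosen by symbol: the lactate dehydrogenase subunits LDHA and LDHB, the pyruvate dehydrogenase kinases PDK1, PDK2, PDK3 and PDK4, the mitochondrial pyruvate carrier subunits MPC1 and MPC2, and the monocarboxylate transporters SLC16A1 and SLC16A3. The group was drawn up because LDHA and LDHB were higher in adapted cells while the glycolysis enzymes were lower, so the values of LDHA, LDHB and those enzymes are given as a description with no test. Parental cells are 3 samples labelled Osi for 0 h and adapted cells are 3 samples labelled Osi for 72 h, both of wild-type genotype per the labels and with 1000 nM as the labelled dose. The parental columns carry the name DMSO, yet no source says if or how long those cells stood in DMSO, so time in culture cannot be told apart from the treatment. Apoptotic cells were washed off before extraction, so the adapted samples hold the cells that remained attached. Total RNA was digested with RNase R, an enzyme that removes linear RNA, before library construction per the labels, while the methods of the study mention total RNA without this digestion. The samples are replicates of a single cell line, and no label says that they came from separate cultures, so p-values measure the spread between these samples only, which may be technical.

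Pyruvate, the end product of glycolysis, can be reduced to lactate in the cytosol or carried into mitochondria and oxidised to acetyl-CoA. Lactate dehydrogenase catalyses the first step in both directions as a tetramer, with LDHA the M subunit that favours lactate formation and LDHB the H subunit that favours pyruvate formation. The MPC1-MPC2 heterodimer carries pyruvate across the inner mitochondrial membrane, the PDK enzymes phosphorylate and so inhibit the pyruvate dehydrogenase (PDH) complex behind it, and SLC16A1 (MCT1) and SLC16A3 (MCT4) move lactate with a proton across the plasma membrane. LDHA, PDK1 and SLC16A3 are textbook targets of the hypoxia-inducible factor HIF-1.

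The core letters of the hypoxia-response element lie close together in the promoters of those 3 genes, and the stretches are shown because their transcripts differed in opposite directions between the groups. The letters ACGTG, with CACGT as their form on the other strand and overlapping matches (as in CACGTG) counted as 1 site, were searched in the 250 bases before each transcription start of the RefSeq promoter windows (GRCh38.p14). The form GCGTG was not searched. Of the 10 genes, 9 had a window, the exception being SLC16A1. At least 1 window had 2 sites within 30 bases in LDHA, PDK1 and SLC16A3, against 0.901% of the 27305 genes with windows. PDK2 and PDK3 had 1 site each, and LDHB, PDK4, MPC1 and MPC2 had none in these windows. The stretches are written 5′ to 3′ on the gene's strand, which is the plus strand in all 3, with the sites in capitals.
LDHA: actcaCACGTGggttcccgCACGTccgccg
PDK1: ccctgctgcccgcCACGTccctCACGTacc
SLC16A3: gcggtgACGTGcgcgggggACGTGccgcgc
The LDHA stretch is chr11:18394471-18394500 and ends 63 bases before the start of its window's transcript, the PDK1 stretch is chr2:172556060-172556089 and ends 1 base before it, and the SLC16A3 stretch is chr17:82228968-82228997 and ends 45 bases before it. The LDHA and PDK1 stretches also overlap an untranslated region annotated in GENCODE v29, looked up by position without regard to gene or strand. Both lie inside their annotated genes, which begin at 18394388 (LDHA) and 172555373 (PDK1). The SLC16A3 stretch overlaps no such region, but it too lies inside its annotated gene, which begins at 82228397. Sites were found in 1 of 2 windows of LDHA, 1 of 2 of PDK1 and 1 of 5 of SLC16A3. A match is a description of the letters and says nothing about binding.

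The table gives log2(FPKM + 1). FPKM scales the fragments of a gene by its length and by the size of the library, and this unit was inferred from the values since it is not named. All 10 genes passed the filter of a mean of at least 1 over the 6 samples, as did 12656 rows in all. Parental and adapted samples were compared in those 12656 rows with limma and Benjamini-Hochberg adjustment over all of them, and a gene is said to have risen or fallen only with an adjusted p under 0.05. Past this threshold were 56.9% of all rows tested, 30.7% higher and 26.2% lower in adapted cells, and in 66.3% the groups did not overlap (35.7% higher and 30.6% lower). Of the 8 members other than LDHA and LDHB, 2 rose (PDK2 and MPC1), 5 fell (PDK1, PDK3, MPC2, SLC16A1 and SLC16A3) and 1, PDK4, did not pass. With LDHA and LDHB, the groups did not overlap in 9 of the 10 members, 4 higher and 5 lower in adapted cells. These shares are given as the background, and nothing is read from them, since the same comparison chose the genes. In 147 rows of the table, the values of 1 group do not turn back into FPKM with 6 decimals as all other values do, and do so after a constant is subtracted. LDHA and MPC1 are among the 87 rows in which that constant is 0.66 on the log2 scale in the adapted samples, and both are given as deposited and with it subtracted. Whether subtraction returns the original values is not known.

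**Figure D1:**
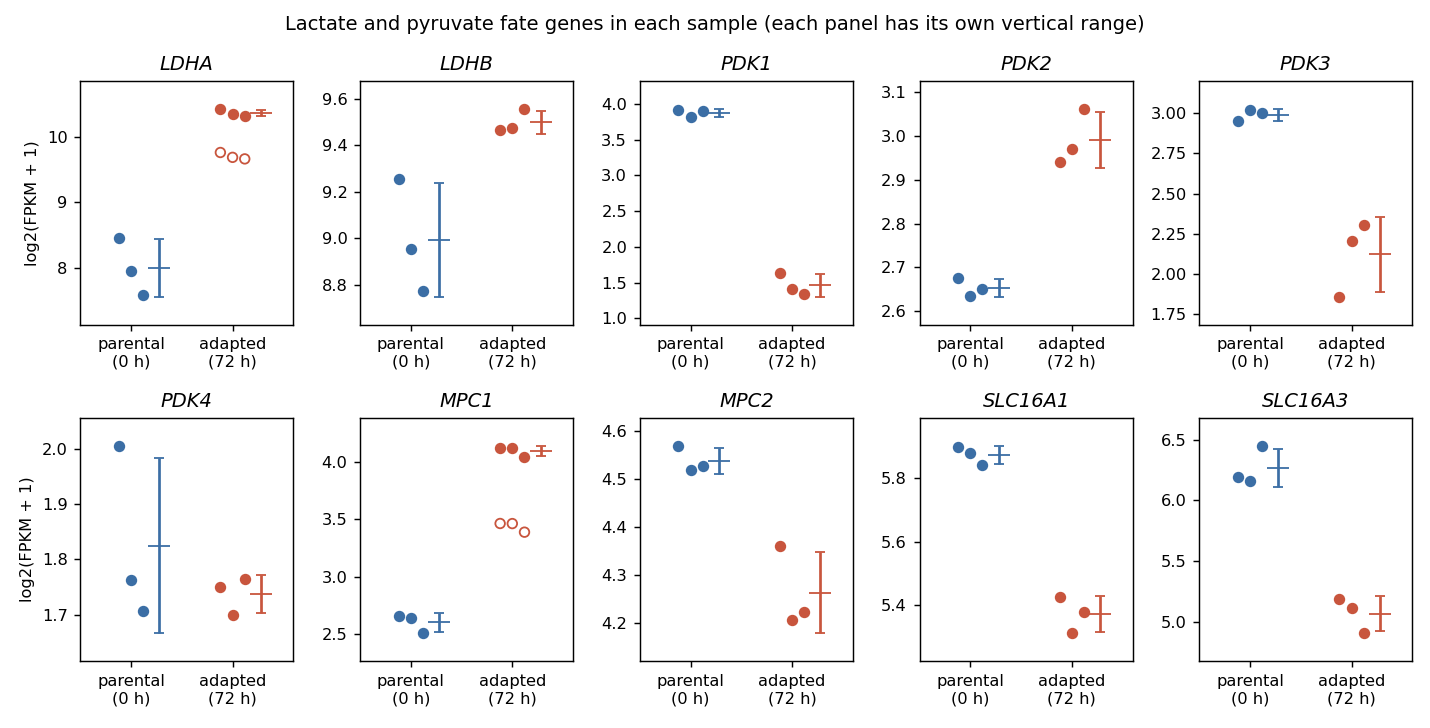
Each panel plots log2(FPKM + 1) of a member in the 3 parental (blue) and 3 adapted (red) samples, with the mean ± SD beside them. Open circles in the LDHA and MPC1 panels are the adapted values with 0.66 subtracted, and PDK4 is the member whose groups overlap.

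LDHA, the subunit that favours lactate formation, lies on chromosome 11 from 18394388 to 18408425 on the plus strand (GENCODE v29, GRCh38). Its FPKM was 353, 246 and 193 in parental replicates 1, 2 and 3, and 1370, 1302 and 1281 in the adapted replicates as deposited. The adapted samples lay close together and all above the parental samples, which themselves spread widely. On the log2(FPKM + 1) scale the parental mean was 8.004 ± 0.437 and the adapted mean 10.36 ± 0.05 (SD, n = 3 each), a difference of 2.36 (standard error 0.20), or 1.70 with the constant subtracted. In FPKM, the adapted mean was 4.99-fold the parental mean as deposited. With the constant subtracted the adapted values were 867, 823 and 810, or 3.16-fold the parental mean, and still did not overlap with the parental values.

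LDHB, the subunit that favours pyruvate formation, is encoded on the minus strand of chromosome 12, from 21635342 to 21757857. All 6 of its values turn back into FPKM with 6 decimals. They were 610, 495 and 437 in parental replicates 1, 2 and 3 and 705, 710 and 751 in the adapted replicates. The groups did not overlap, with parental replicate 1 nearest to the adapted samples. The log2(FPKM + 1) mean went from 8.99 ± 0.24 to 9.50 ± 0.05 (SD, n = 3 each), a difference of 0.50 (standard error 0.12). Exons of LDHB overlap those of AC010197.2 on the same strand, so reads there cannot be told apart. AC010197.2 had 0.41, 0.47 and 0 in parental and 0.14, 0 and 0 in adapted cells in log2(FPKM + 1).

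The balance of the subunit transcripts changed sides. LDHA made up 36.6%, 33.2% and 30.6% of the summed LDHA and LDHB FPKM in the parental samples and 66.0%, 64.7% and 63.0% in the adapted samples as deposited. With the constant subtracted from LDHA, the adapted shares were 55.1%, 53.7% and 51.9%. LDHB transcripts were therefore the larger part in every parental sample and LDHA transcripts in every adapted sample under both treatments of the values, and this rests on the values for which the genes were chosen. The log2 ratio of LDHA to LDHB went from -0.99 ± 0.19 before to 0.87 ± 0.09 after adaptation (SD, n = 3 each), or 0.21 ± 0.09 with the constant subtracted.

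The parental samples differed from each other in LDHA more than in any row of like level. The SD of LDHA over the parental samples was 0.44, against a median of 0.032 over the 284 other rows whose parental mean is within 1 log2 unit of it, and 0 of the 284 had a larger one. For LDHB the SD was 0.24 against a median of 0.035 over 148 rows, of which 5 had a larger one. Both genes were highest in parental replicate 1 and lowest in parental replicate 3. In the adapted samples their spread was small, and 9.80% (LDHA) and 7.07% (LDHB) of rows of like level had a smaller SD. SLC16A3 also varied between parental samples, with an SD of 0.16 that 61 of 1447 rows of like level exceeded, but it was highest in parental replicate 3. Without parental replicate 1, the log2 difference of LDHA as deposited was 2.59, and over all alternatives that keep the deposited values it ranged from 2.16 to 2.59.

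PDK1, a PDH kinase induced by HIF-1, fell furthest of all members. The gene lies on chromosome 2 from 172555373 to 172608669 on the plus strand. Its FPKM was 14.02, 13.05 and 13.87 before adaptation and 2.11, 1.65 and 1.53 after it, with a wide gap between the groups. The parental mean was 7.73-fold the adapted mean, and log2(FPKM + 1) fell by 2.41 (standard error 0.09, limma, adjusted p = 3.51e-06).

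PDK3 (chromosome X from 24465221 to 24541862, plus strand), the isoform least inhibited by pyruvate, also fell. Its FPKM went from 6.73, 7.10 and 7.01 in the parental samples to 2.63, 3.61 and 3.93 in the adapted ones. All adapted samples were below all parental samples, with adapted replicate 1 the lowest. Log2(FPKM + 1) fell by 0.87 (standard error 0.12, limma, adjusted p = 7.17e-04).

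PDK2 (chromosome 17 from 50094737 to 50112152, plus strand), the most widely expressed isoform, was the only kinase of the 4 to rise, and by little. The parental samples had 5.39, 5.21 and 5.28 FPKM and the adapted samples 6.68, 6.84 and 7.35, without overlap. The log2 fold change was 0.34 (standard error 0.07, limma, adjusted p = 0.0041).

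PDK4 (chromosome 7 from 95583499 to 95596491, minus strand), the isoform induced by fasting in muscle and liver, was the lowest of the 4 kinases in parental cells. Its values were 3.01, 2.39 and 2.26 FPKM in parental against 2.36, 2.25 and 2.40 FPKM in adapted samples. The groups overlapped, with parental replicate 1 apart from the other 5 samples. The log2 fold change was -0.09 (standard error 0.10, limma, adjusted p = 0.478), and it was 0.0028 without parental replicate 1.

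In sum over the 4 kinases, FPKM was 28.4 ± 0.7 before and 14.4 ± 0.7 after adaptation (SD, n = 3 each). PDK1 made up 48.0% ± 0.9 of this sum in parental cells and 12.3% ± 2.7 in adapted cells, and PDK2 18.6% ± 0.1 and 48.2% ± 0.4. PDK1 was thus the most abundant kinase transcript in all 3 parental samples and the least abundant in all 3 adapted samples. The share of PDK3 was 24.4% ± 1.3 in parental and 23.4% ± 3.7 in adapted cells, a difference within the spread, and that of PDK4 was 8.98% ± 1.23 and 16.2% ± 0.8. The share of PDK4 was thus higher in every adapted sample while its own FPKM overlapped between the groups.

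**Figure D2:**
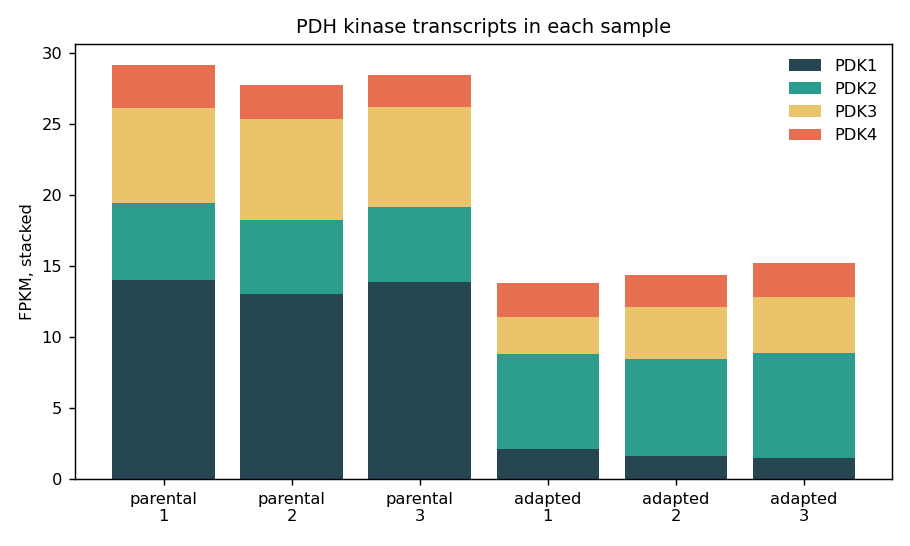
Stacked bars give the FPKM of PDK1, PDK2, PDK3 and PDK4 in each of the 6 samples. The bars sum to 27.7 to 29.1 in parental and 13.8 to 15.2 in adapted samples, and the PDK1 segment shrinks from at least 13.05 to at most 2.11.

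MPC1 and MPC2, which work only as a pair, changed in opposite directions. MPC1 is encoded on the minus strand of chromosome 6, from 166364919 to 166383013. Its parental FPKM was 5.304, 5.220 and 4.675, and the adapted FPKM as deposited 16.4, 16.4 and 15.5. The log2 fold change was 1.499 (standard error 0.07, limma, adjusted p = 6.8e-06), and 0.84 with the constant subtracted (limma, adjusted p = 9.27e-05), when the adapted FPKM was 10.0, 10.0 and 9.47. The adapted samples were above the parental samples in both cases, by 3.18-fold and 1.94-fold in mean FPKM.

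MPC2 (chromosome 1 from 167916729 to 167937040, minus strand) was the more abundant subunit transcript in parental cells, and its values carry no constant. Its FPKM was 22.7, 21.9 and 22.1 before adaptation and 19.5, 17.4 and 17.7 after it. The groups did not overlap, and log2(FPKM + 1) fell by 0.28 (standard error 0.06, limma, adjusted p = 0.0085). Exons of MPC2 overlap those of DCAF6 on the opposite strand, which went from 4.28, 4.33 and 4.28 to 4.80, 5.13 and 5.19 in log2(FPKM + 1), and whether counting used strand is not stated, so reads there cannot be told apart. MPC1 made up 18.5% ± 0.9 of the summed FPKM of the pair in parental cells and 47.0% ± 1.4 in adapted cells (SD, n = 3 each), or 35.1% ± 1.3 with the constant subtracted.

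Both lactate transporters among the members fell, the one usually linked to lactate export more than the other. Outside the members, SLC16A7 rose, as given below, and SLC16A8 did not pass (log2 fold change 0.30, limma, adjusted p = 0.0563). SLC16A3 (MCT4) lies on chromosome 17 from 82228397 to 82261129 on the plus strand. It had 72.1, 70.6 and 86.3 FPKM in the parental samples and 35.4, 33.6 and 28.95 FPKM in the adapted samples, with parental replicate 3 the highest and a clear gap between the groups. The parental mean was 2.34-fold the adapted mean, and log2(FPKM + 1) fell by 1.20 (standard error 0.10, limma, adjusted p = 9.7e-05). SLC16A3 shares exon sequence with CSNK1D on the opposite strand, which had 5.71, 5.68 and 5.66 in parental and 5.90, 6.09 and 6.14 in adapted cells in log2(FPKM + 1).

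SLC16A1 (MCT1, chromosome 1 from 112911847 to 112957013, minus strand), which carries lactate in either direction, had 58.7, 57.8 and 56.4 FPKM in parental against 41.96, 38.71 and 40.56 FPKM in adapted samples. Its samples lay close together in each group and did not overlap. Log2(FPKM + 1) fell by 0.50 (standard error 0.06, limma, adjusted p = 3.06e-04). SLC16A3 was above SLC16A1 in each parental sample and below it in each adapted sample. The log2 ratio of SLC16A3 to SLC16A1 went from 0.40 ± 0.19 to -0.31 ± 0.15 (SD, n = 3 each), a change of -0.71 (p = 0.1 by a two-sided exact permutation test, which cannot go lower with 3 samples a group and so cannot reach 0.05).

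**Figure D3:**
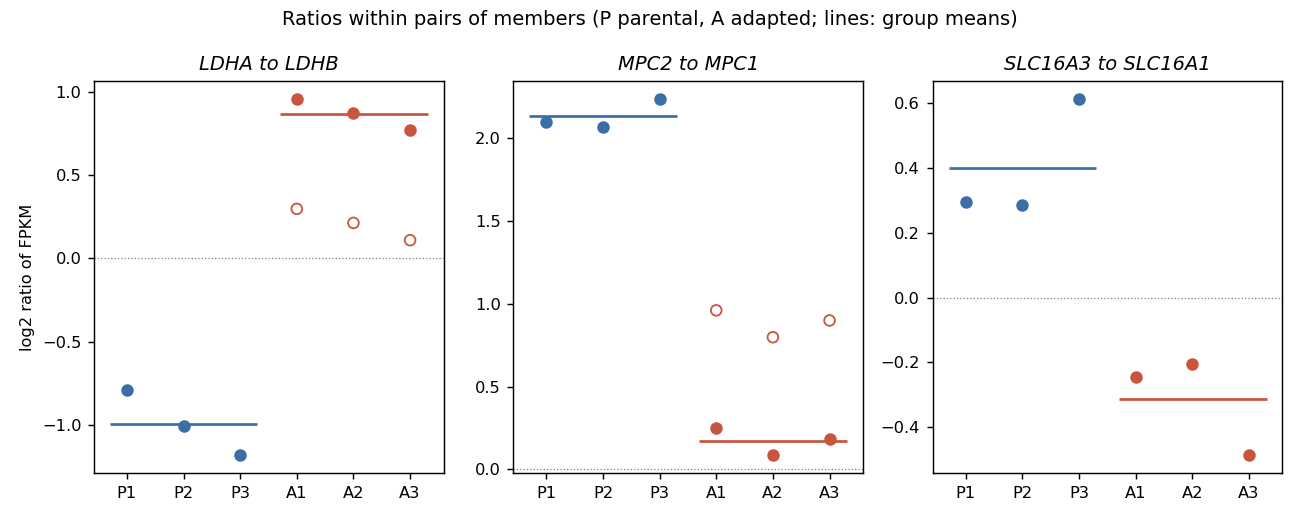
Points are the log2 ratio of FPKM in each parental (P, blue) and adapted (A, red) sample for LDHA to LDHB, MPC2 to MPC1 and SLC16A3 to SLC16A1, with lines at the group means and open circles for values with 0.66 subtracted. LDHA to LDHB and SLC16A3 to SLC16A1 cross 0, where both transcripts are equal, and MPC2 to MPC1 stays above 0.

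Upstream of pyruvate, the glycolysis enzymes were lower in adapted cells, which is the other side of the contrast for which the genes were picked, so their values too are a description with no test. In all 15 enzymes from HK1 to PKM, every adapted sample was below every parental sample (30.6% of all rows tested were so), and none of their values carries a constant. Their median log2 fold change was -1.16, against 0.028 over all rows tested. Except in HK2, PFKL and ALDOC, adapted replicate 1 was the highest of the adapted samples, and in some enzymes it stood apart. GPI, named after its values were seen, had 7.01, 6.99 and 7.10 in parental and 6.14, 5.42 and 5.50 in adapted cells in log2(FPKM + 1). HK2, the inducible hexokinase, had 4.28, 4.24 and 4.23 in parental and 2.20, 2.24 and 2.07 in adapted cells in log2(FPKM + 1). That is a log2 fold change of -2.08, the lowest of the 15, followed by -1.78 for PGK1, which makes the first ATP of the pathway, and -1.64 for the aldolase ALDOC. PFKM, the muscle phosphofructokinase, was singled out after its values were seen as the nearest to 0, at -0.29 (standard error 0.09). LDHA at 2.36, or 1.70 with its constant subtracted, and LDHB at 0.50 were above 0 while every listed enzyme before them in the pathway was below it.

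Of the PDH complex and its phosphatases, 7 of the 8 listed genes were in the table under these symbols and were tested, the exception being PDP1. As deposited, 3 rose and 1 fell, where 30.7% of all rows tested rose and 26.2% fell, and nothing is read from these counts. The median log2 fold change was 0.16, against 0.028 over all rows tested. PDHB, the beta subunit of the E1 enzyme on which the PDK enzymes act, rose by 0.54 (limma, adjusted p = 0.00285) and PDHX, which anchors E3 in the complex, rose by 0.45 (limma, adjusted p = 6.81e-04). PDHA1, the E1 subunit that carries the phosphorylation sites, rose by 0.81 as deposited (limma, adjusted p = 8.66e-05) but had 0.15 with its constant of 0.66 subtracted (limma, adjusted p = 0.111), so that its call was lost with the constant. PDP2, a phosphatase that reverses the action of the kinases, fell by 0.39 (limma, adjusted p = 0.00169), and DLAT, DLD and PDPR did not pass, at -0.10, -0.13 and 0.16.

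Other routes of pyruvate and lactate held genes that rose and genes that fell. Of 19 genes listed, 10 passed the filter, and 2 of these rose and 2 fell. Among all rows tested, 30.7% rose and 26.2% fell, and nothing is read from the counts. PC, the mitochondrial enzyme that carboxylates pyruvate to oxaloacetate, fell by 1.52 (limma, adjusted p = 7.34e-05), and GPT2, which exchanges pyruvate and alanine in mitochondria, fell by 1.05 (limma, adjusted p = 6.62e-05). ME3, a mitochondrial malic enzyme that forms pyruvate, rose by 1.06 (limma, adjusted p = 3.12e-05), and SLC16A7 (MCT2), a transporter with high affinity for pyruvate, rose by 0.68 (limma, adjusted p = 0.00474). BSG (basigin), which SLC16A1 and SLC16A3 need to reach the cell surface, did not pass, with 7.47, 7.48 and 7.46 in parental and 7.72, 7.46 and 7.51 in adapted cells in log2(FPKM + 1), a difference of 0.09 (limma, adjusted p = 0.344). The sperm lactate dehydrogenase LDHC and the related LDHAL6A and LDHAL6B stayed under 0.26 in every sample on that scale, and LDHD, which acts on D-lactate, reached 0.36 at most.

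**Figure D4:**
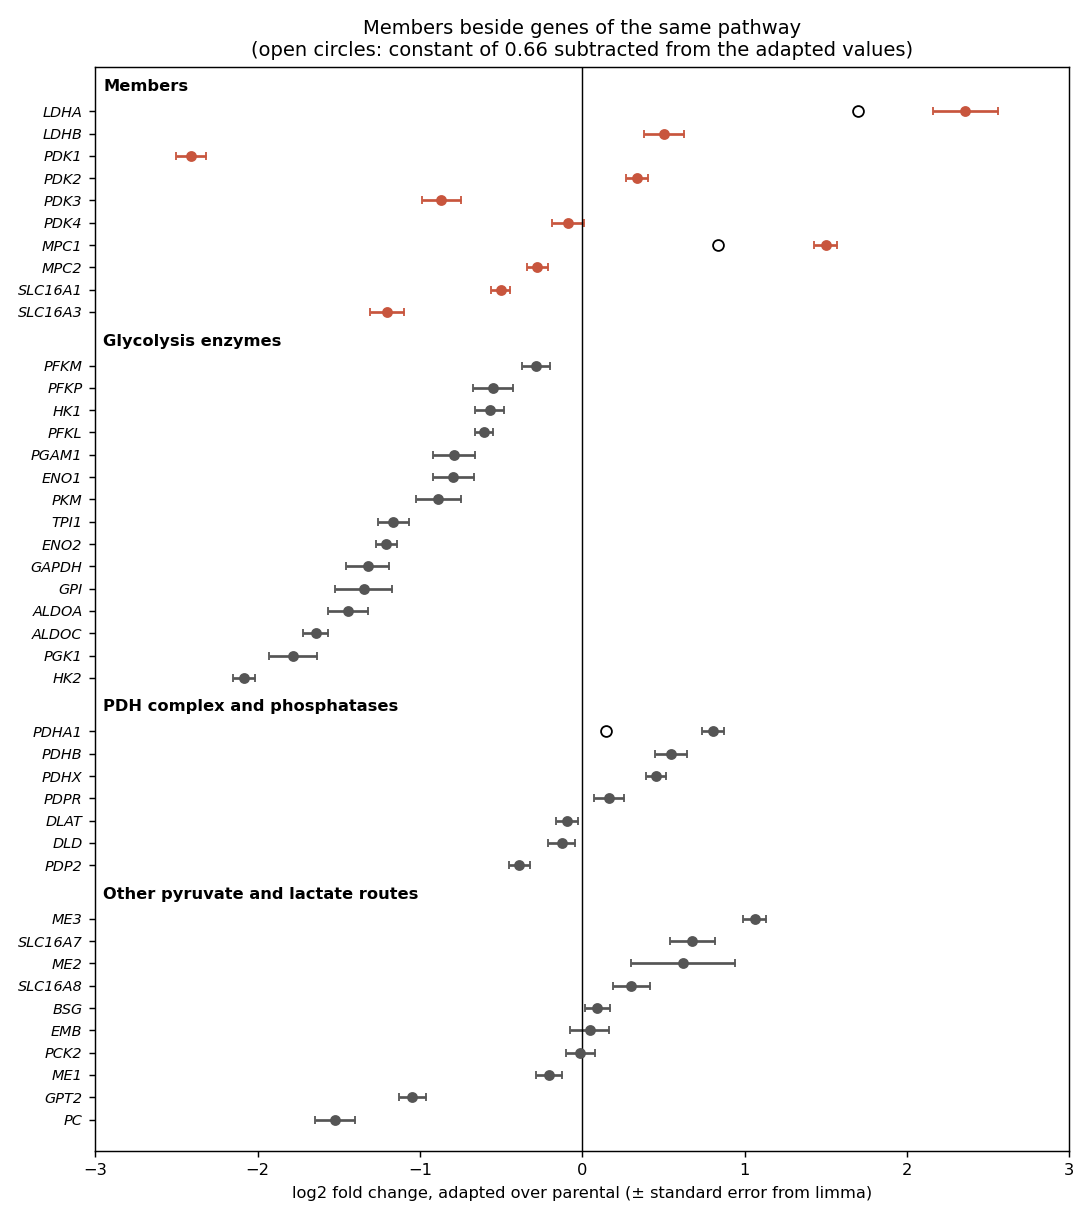
Points give the log2 fold change of adapted over parental cells with its standard error from limma for the 10 members (red) and for the tested genes of glycolysis, the PDH complex and other pyruvate and lactate routes (grey), and open circles the value with 0.66 subtracted. The 15 glycolysis enzymes lie between -2.08 and -0.29, left of 0, and LDHA and LDHB lie to its right.

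The rows whose values were most like those of LDHA and LDHB over the 6 samples were looked up among 7563 named rows with a mean of at least 3, by Pearson's r, as a description in which the difference between groups dominates. All values were taken as deposited, so the adapted values of LDHA carry the constant, and the search was not repeated with it subtracted. In this setting, those closest to LDHA were ZNF326 (r = 0.9997), GNA11 (0.9991) and UQCRC1 (0.9986), a core subunit of respiratory complex III in which the adapted values also carry a constant. Those closest to LDHB were 3 nuclear-encoded respiratory subunits on the 6-decimal grid, ATP5F1B (r = 0.990) of ATP synthase, NDUFB8 (0.989) of complex I and COX5B (0.985) of complex IV. These 3 shared the order of LDHB among parental samples, which is no separate observation, since r over the same samples picked them. COX5B, for example, had 6.64, 6.29 and 6.02 in parental replicates 1, 2 and 3 and 6.79, 6.77 and 6.79 in the adapted replicates in log2(FPKM + 1).

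In bulk RNA, a change in the mix of cells and a change of RNA per cell cannot be told apart. All 6 epithelial markers passed the filter, with summed FPKM of 3710 to 3742 in parental and 3491 to 3788 in adapted samples. Within this sum, KRT7 rose (log2 fold change 1.07), KRT8, KRT18 and KRT19 fell (-0.28, -0.57 and -0.75), and EPCAM and CDH1 did not pass. Of 4 lung epithelial markers, NKX2-1 rose (0.47), NAPSA fell (-0.81) and the surfactant genes SFTPB and SFTPC stayed under 0.30 in log2(FPKM + 1), with sums of 133.5 to 133.6 and 79.5 to 124 FPKM. The 4 leukocyte markers summed to 74.2 to 76.8 FPKM in parental and 14.7 to 29.6 in adapted samples, nearly all of it CD68, a lysosomal protein found in many cell types, which fell (-1.85), while CD3E was at 0 in all samples and PTPRC under 0.08 in log2(FPKM + 1). The 3 endothelial markers, none past the filter, summed to 1.13 to 1.86 and 1.42 to 3.47 FPKM, with PECAM1 at 0.996 to 1.396 in parental and at most 0.11 in adapted samples and CDH5 at most 0.27 in parental and 1.19 to 2.08 in adapted samples in log2(FPKM + 1). The 5 fibroblast markers summed to 3.04 to 3.16 and 7.65 to 9.21 FPKM, mostly COL1A1, which rose (1.121), while COL1A2 stayed under 0.04 in log2(FPKM + 1). On that scale LUM, below the filter, was at 0.04 to 0.06 in parental and 0.53 to 0.73 in adapted samples, and DCN and PDGFRB overlapped between the groups. Also below the filter, CD79A was at 0.38 to 0.65 in parental and 0 to 0.12 in adapted samples, and VWF at 0.02 to 0.04 and 0.12 to 0.34. The part of these changes in the results was not tested. GENCODE v29 names 6 pseudogenes for LDHA, 3 for LDHB and 1 for SLC16A1, none of which is a row of the table, so reads shared with such copies cannot be told apart from those of the gene.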

How the data were processed

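RNA-sequencing values of 3 parental and 3 adapted samples were analysed. The values that the authors deposited are on a log2 scale, in 1 column for each sample over 27216 rows. No source names the unit. Base 2 and an added 1 followed from the 6-decimal numbers that 27069 rows give back, and FPKM from per-sample totals of 375342 to 387753 after undoing the logarithm. Per the labels, the build is hg38, and the submitters' processing notes name Bowtie2 2.1.0, STAR and edgeR with no role. The quantifier and annotation are not given in the sources used here. The authors' methods name DESeq2, which needs counts, so limma 3.58.1 in R 4.3.3 (lmFit, eBayes with an intensity trend) was run on the log2 values, unpaired. The depth of each sample is unknown, so no counting error is given. Changes of low genes are understated by the added 1. The samples correlated across all rows at r = 0.997 within parental and 0.991 to 0.996 within adapted cells. Constants from 0.01 to 0.99 were searched for rows off the 6-decimal grid. The search and the fit were tested on simulated data. Members and lists were chosen with earlier results of these data known. Genes were named by a rule: the members, up to 3 genes of each list that rose or fell most past the threshold without overlap, and the 3 rows most like LDHA and LDHB. Others are named as chosen after their values were seen or to account for a list. Alternatives were a pseudocount of 0.1, other filters and scalings, other variance models, a replicate block, leaving out samples and rows, and subtracting the constants.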

Additional observations from a re-analysis of the deposited data

How the results depend on the processing

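The 7 calls among members other than LDHA and LDHB kept their direction and side of the threshold in all 129 refits over 19 alternatives, where each gene could be fitted. The log2 difference of LDHB ranged from 0.39 to 0.63 over these alternatives. The change in the log2 ratio of LDHA to LDHB was 1.86 as deposited, 1.20 with the constants subtracted, and 1.77 to 1.96 when each sample was left out in turn. That of SLC16A3 to SLC16A1 stayed between -0.77 and -0.60 without single samples. With the stricter filter (mean of at least 3), 4532 of all rows in place of 7202 were past the threshold, 3 members in place of 5 were lower, and 2 of the other pyruvate and lactate genes in place of 4 were called, since fewer genes were tested. Leaving out the rows with a constant removes LDHA and MPC1. Of the members other than LDHA and LDHB, PDK2 was then the only gene called higher, in place of PDK2 and MPC1. Without single samples, the count over all rows ranged from 5763 to 8370, highest without adapted replicate 1 and that of the other pyruvate and lactate genes from 4 to 6. Genes that did not pass changed sign: PDK4 (-0.15 to 0.0028 without single samples), PCK2 (0.036 with equal sums without mitochondrial genes, and -0.078 to 0.085 without single samples) and EMB (-0.014 after quantile normalization, and -0.029 to 0.17 without single samples). The replicate numbers did not pair the samples, since the deviations of same-numbered samples correlated at -0.051, -0.031 and -0.020 and no parental sample correlated best with its own number. With the replicate block, 6761 rows were called, and among the listed genes ME2 passed (log2 fold change 0.62, limma, adjusted p = 0.0274, against 0.134 without the block).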

Other observations

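The order of the parental samples seen in LDHA and LDHB recurred in other rows with a large spread. Limits of a parental mean of at least 5 and a parental SD of at least 0.15 in log2(FPKM + 1) were set after the data were seen. Of 2204 rows with that mean, 98 had that SD, LDHA, LDHB and SLC16A3 among them. In 33 of the 98, parental replicate 1 was highest and parental replicate 3 lowest, while each of the other 5 possible orders had 10 to 19 rows. Of the 98 rows, 17 carry a constant, as do 11 of the 33, against 56 (2.54%) of the 2204. With the mean taken over all 6 samples, 35 of 100 rows had that order. Besides LDHA and LDHB, the 33 hold respiratory subunits that carry no constant. Of these, COX5B, NDUFB8 and ATP5F1B had been picked for their likeness to LDHB. COX7A2, COX8A, ATP5PB, ATP5F1D and ATP5MC1 had not been named for such likeness, but all of the 33 were kept for this same order. Further subunits, such as UQCRC1 and COX5A, carry a constant, and rows such as EEF1A1, RPL10 and CLDN4 code for no respiratory subunit. How many respiratory subunits lacked this order was not counted. The cause was not tested.

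The malic enzyme ME2, named after its values were seen, had 2.59, 2.61 and 3.79 in parental and 3.57, 3.38 and 3.91 in adapted cells in log2(FPKM + 1). As deposited it did not pass (log2 fold change 0.62, limma, adjusted p = 0.134), and without parental replicate 3 its log2 fold change was 1.02 (limma, adjusted p = 0.00331).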
